A study of Homo sapiens with 6 samples.

Results

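The regions described here are the ChIP-seq peaks of 82-kDa choline acetyltransferase (82-kDa ChAT) and of SATB1 that hold a G-quadruplex motif. A peak was a member when its hg38 sequence contained, on either strand, 4 runs of at least 3 guanines (GGG) with 1 to 20 nt of any base (N) between runs, searched on chromosomes 1 to 22 and X. Of 21943 peaks on these chromosomes, 1092 were members, and the 4 deposited lists held 23953 peaks on all sequences of the assembly. By list, 504 members came from 82-kDa ChAT after vehicle, 301 from 82-kDa ChAT after amyloid-β (Aβ), 187 from SATB1 after vehicle and 100 from SATB1 after Aβ. Sequence alone chose the members, so their positions, scores and overlaps were not used in choosing them.

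All cells were SH-SY5Y, a human neuroblastoma line, stably expressing 82-kDa ChAT, the nuclear form of the enzyme that makes acetylcholine, and differentiated with retinoic acid for 3 days. For 4 h they then received vehicle or 100 nM Aβ oligomers, with 3 plates of cells per treatment. Chromatin was precipitated with an antibody to the C-terminus of ChAT or with one to SATB1, a chromatin organiser that binds AT-rich DNA. Because the vehicle cells carried the transgene too, cells without 82-kDa ChAT were not compared here. Each protein was sequenced once per treatment, so treatments could not be tested against each other, and the 95% intervals below reflect only how many peaks were counted. Neighbouring peaks are not independent of each other, and the same input of a treatment served both proteins.

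A G-quadruplex is a DNA fold in which guanines of neighbouring runs stack as planar quartets held by potassium ions. The sequence motif is common at promoters, in G-rich minisatellites and in the TTAGGG repeats of telomeres, and folded quadruplexes are bound and unwound by dedicated helicases. A motif gives the capacity to fold and not the fold itself, and no readout of folding belongs to these data.

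Members of 4 kinds are shown first because the results below turn on them. Each stretch was read from hg38 and is written 5′ to 3′ on the strand that carries the guanines, with runs of at least 3 guanines in capitals. Members next to a gene start show how the runs are spaced where a promoter could be touched. For the CYP4F11 stretch, which both proteins shared after vehicle, the first 8 of its 9 runs are shown.
DCHS1, chr11:6656517-6656551, minus strand: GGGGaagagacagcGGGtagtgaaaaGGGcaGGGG
GRP, chr18:59219784-59219825, minus strand: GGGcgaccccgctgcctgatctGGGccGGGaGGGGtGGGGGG
TRAPPC4, chr11:119019007-119019077, plus strand: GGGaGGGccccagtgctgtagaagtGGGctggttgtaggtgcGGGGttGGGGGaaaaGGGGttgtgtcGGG
GRIN3B, chr19:1000277-1000335, minus strand: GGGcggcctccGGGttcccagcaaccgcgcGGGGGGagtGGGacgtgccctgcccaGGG
PITPNC1, chr17:67376976-67377028, plus strand: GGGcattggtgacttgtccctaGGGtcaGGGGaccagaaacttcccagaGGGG
ZNF536, chr19:30225808-30225869, minus strand: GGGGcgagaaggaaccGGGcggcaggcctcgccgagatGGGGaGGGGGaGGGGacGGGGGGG
ATG9B, chr7:151024203-151024239, plus strand: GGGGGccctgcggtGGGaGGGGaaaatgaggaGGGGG
ZDHHC12, chr9:128723212-128723248, plus strand: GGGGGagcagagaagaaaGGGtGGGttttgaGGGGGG
SULT1A4, chr16:29459213-29459258, minus strand: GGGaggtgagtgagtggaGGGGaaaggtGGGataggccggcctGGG
CYP4F11, chr19:15933902-15934045, plus strand: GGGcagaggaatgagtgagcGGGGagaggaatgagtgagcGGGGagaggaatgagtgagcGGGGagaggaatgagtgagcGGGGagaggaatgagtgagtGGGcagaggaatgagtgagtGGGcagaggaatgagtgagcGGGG

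Members of highest score in the SATB1 lists follow. A site in the spacer between ribosomal RNA genes led SATB1 after vehicle, and a site near INSIG1 led SATB1 after Aβ.
Ribosomal spacer, chr21:8226547-8226616, plus strand: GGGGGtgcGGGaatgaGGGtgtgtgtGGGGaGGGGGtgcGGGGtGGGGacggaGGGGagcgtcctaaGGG
INSIG1, chr7:155335591-155335657, minus strand: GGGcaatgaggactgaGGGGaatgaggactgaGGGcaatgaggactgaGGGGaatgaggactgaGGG

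Arrays in which each copy of a repeat brings its own guanine runs gave the members with the most runs. Only the beginning of the stretch is shown for UNCX, TENM3, PTPRN2 and SLC6A19, the last of which had a motif peak in all 4 lists. The ABCC10 stretch lies in intron 18 and was in a peak of 3 lists.
UNCX, chr7:1272986-1273128, minus strand: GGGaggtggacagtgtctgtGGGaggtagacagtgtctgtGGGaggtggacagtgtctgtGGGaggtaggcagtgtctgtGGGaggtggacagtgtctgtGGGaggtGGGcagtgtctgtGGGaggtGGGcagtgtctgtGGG
TENM3, chr4:181241638-181241770, minus strand: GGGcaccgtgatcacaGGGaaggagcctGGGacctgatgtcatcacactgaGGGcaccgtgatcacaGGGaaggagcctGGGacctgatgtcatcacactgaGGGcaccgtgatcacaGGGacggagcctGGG
PTPRN2, chr7:158149036-158149167, minus strand: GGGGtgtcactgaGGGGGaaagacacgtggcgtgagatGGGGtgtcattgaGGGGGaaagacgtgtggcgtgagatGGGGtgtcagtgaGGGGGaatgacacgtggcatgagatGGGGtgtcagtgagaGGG
SLC6A19, chr5:1192015-1192153, plus strand: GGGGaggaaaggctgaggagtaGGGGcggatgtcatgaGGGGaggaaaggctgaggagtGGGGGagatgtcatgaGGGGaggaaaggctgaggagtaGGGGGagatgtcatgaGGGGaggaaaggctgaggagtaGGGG
ABCC10, chr6:43447942-43447971, plus strand: GGGGGagatggacttGGGaGGGGaaGGGGG

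Telomere-type repeats were rare, and both stretches below were in SATB1 peaks after vehicle.
PPP2R2C, chr4:6423905-6423925, plus strand: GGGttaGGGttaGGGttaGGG
PLEKHG4B, chr5:49506-49605, plus strand: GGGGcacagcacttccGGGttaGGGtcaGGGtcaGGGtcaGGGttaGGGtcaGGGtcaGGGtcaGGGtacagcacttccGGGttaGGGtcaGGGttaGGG

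The motif was slightly more common in 3 of the lists than in the genome at large, and it was scarce in SATB1 after Aβ. In 82-kDa ChAT it was held by 7.16% of peaks after vehicle (95% interval 6.56 to 7.78, 504 of 7044) and by 4.79% after Aβ (4.27 to 5.34, 301 of 6290). All windows of the genome with the lengths of these peaks held it in 6.26% and 4.31% of cases, the second of which lies within the interval of the peaks. SATB1 peaks held it in 6.70% of cases after vehicle (5.80 to 7.69, 187 of 2792), with 5.53% of genome windows of the same lengths. After Aβ, SATB1 peaks held it in only 1.72% of cases (1.40 to 2.09, 100 of 5817), while windows of the same lengths held it in 5.03%.

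From vehicle to Aβ the share changed by -2.37 percentage points in 82-kDa ChAT (-3.17 to -1.57). The windows of the same lengths differed too, with 6.26% and 4.31%, as 82-kDa ChAT peaks were shorter after Aβ. Relative to those windows the share was 1.14 times after vehicle and 1.11 times after Aβ. In SATB1 the change was larger (-4.98 points, interval -6.01 to -4.04), and relative to windows the share went from 1.21 times to 0.342 times.

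The copy number of SATB1 peak sequences moved with that change, and its part in it was not tested. High-copy peaks, in which the median 24-mer occurs at least 1000 times in the genome, were 3457 of the 5817 SATB1 peaks after Aβ, and 2 of them held the motif. Among the 2360 other SATB1 peaks after Aβ, 4.15% held it (3.38 to 5.04), against 7.52% after vehicle (6.52 to 8.63), a change of -3.37 points (-4.69 to -2.06). Genome windows of the lengths of those peaks held it in 5.31% and 5.67%.

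Tighter spacing of the runs gave another order. With 1 to 7 nt between runs, the spacing usually taken for a stable fold, 1.15% of 82-kDa ChAT peaks held the motif after vehicle (0.914 to 1.43), below the 1.94% of genome windows. After Aβ it was 1.37% (1.10 to 1.69) with 1.31% of windows, so the difference between treatments changed sign and its interval held 0 (0.217 points, -0.162 to 0.606). For SATB1 the shares were 1.54% after vehicle, with 1.7% of windows, and 0.292% after Aβ, with 1.49% of windows.

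**Figure D1:**
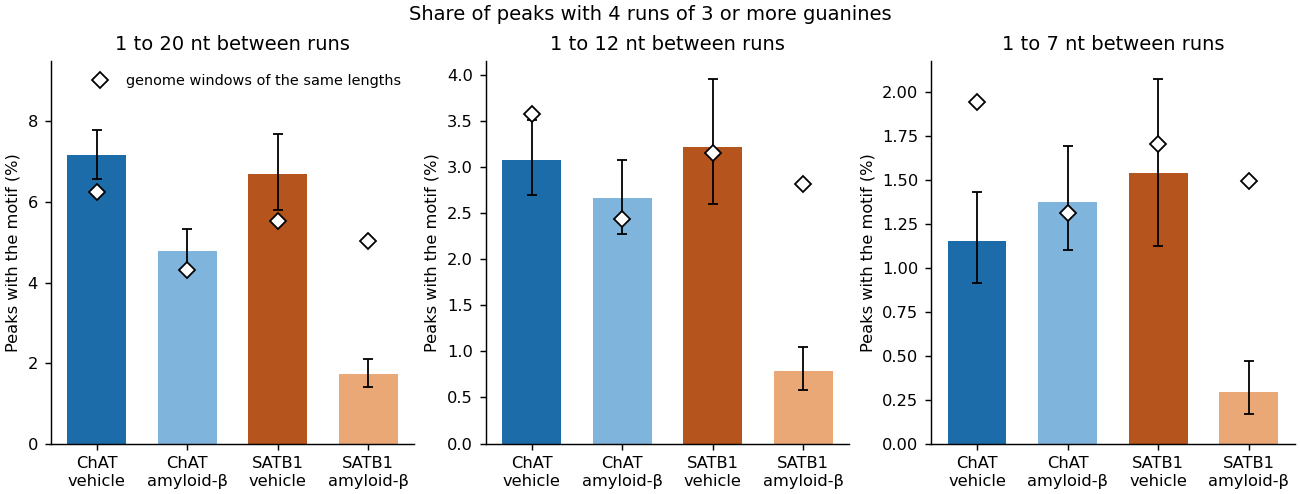
Share of peaks with the motif (%, bars with 95% intervals) in the 4 lists, with 1 to 20, 1 to 12 and 1 to 7 nt allowed between guanine runs, and the share of all genome windows of the same lengths (diamonds). SATB1 after Aβ lies below its windows in all 3 panels (1.72% against 5.03% in the first), whereas 82-kDa ChAT after vehicle lies above its windows in the first panel (7.16% against 6.26%) and below them in the last (1.15% against 1.94%).

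Members were richer in GC than the other peaks of their list. Their median GC content was 57.3% in 82-kDa ChAT after vehicle, 57.7% after Aβ, 56.9% in SATB1 after vehicle and 59.8% after Aβ. The other peaks of the same lists had medians of 40.6%, 41.0%, 39.8% and 51.8%. The motif itself requires guanines, so this gap is in part built in. CpG dinucleotides, which gather in the islands at promoters, reached a median of 0.169, 0.116, 0.167 and 0.179 of the number that base composition predicts. The other peaks had 0.182, 0.0936, 0.192 and 0.373, so members were well below them only in SATB1 after Aβ.

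The MACS score, which ranks peaks within a list, had close medians in members and other peaks. Median scores of members were 65.9, 61.6, 65.5 and 66.1, and those of the other peaks 65.4, 63.6, 65.8 and 66.4, and the 95% intervals of the medians overlapped in every list. Members were longer, with a median of 172 nt against 134 nt in 82-kDa ChAT after vehicle and 148 nt against 134 nt in SATB1 after Aβ, as a longer peak has more room for the motif.

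Members ranged from single motifs to long arrays, with a median of 5 runs in each list. Of the 1092 members, 397 had 4 or fewer runs in their richest stretch and 233 (21.3%) had at least 10. The guanines lay on the plus strand alone in 232 of 504 members of 82-kDa ChAT after vehicle, on the minus strand alone in 260 and on both in 12. Neither strand dominated in the other lists (135 and 155, 86 and 90, and 46 and 48).

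The members with the most runs were tandem repeats from the vehicle lists, and 1 of them lay in a gene. The most was 125 runs over 2110 nt, 903 kb from the start of TENM3, a teneurin adhesion protein, in a repeat of 51 nt with a score of 383 in 82-kDa ChAT after vehicle. An array of 113 runs near TMEM132C had a score of 127 in the same list. The array near UNCX, a homeobox gene, had 84 runs in a repeat of 20 nt, and was a peak of 82-kDa ChAT (score 581) and of SATB1 (score 197) after vehicle. An array of 63 runs lay in intron 1 of PRDM16, a zinc-finger regulator of transcription, with a score of 130. None of these 5 peaks was from an Aβ list.

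Tandem repeats, here peaks at least 80% identical to themselves when shifted by 2 to 100 nt, were 304 of the 1092 members (27.8%). The share was 31.0% in 82-kDa ChAT after vehicle (26.9 to 35.2) against 14.1% of the other peaks, and 20.9% after Aβ (16.5 to 26.0) against 3.96%. In SATB1 it was 28.3% after vehicle (22 to 35.4) against 6.83%, and 32.0% after Aβ (23 to 42.1) against 1.94%. All 4 gaps were larger than counting error, at 16.9, 17.0, 21.5 and 30.1 percentage points. They stayed so among peaks with a GC content of at least 50%, where the gaps were 9.39 (4.33 to 14.6), 17.8 (12.5 to 23.8), 9.18 (1.03 to 17.8) and 33.7 points (24.5 to 44.1).

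Repeat units were of minisatellite size. Units of 20 to 39 nt were the most frequent class, with 135 of the 304 tandem members, and 11 had units under 10 nt. The median unit was 36.0 nt in 82-kDa ChAT after vehicle and 21 nt after Aβ, and 34.0 and 34.5 nt in SATB1. Of the members with at least 10 runs, 63.1% were tandem repeats, whereas 9.57% of those with 4 or fewer were.

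**Figure D2:**
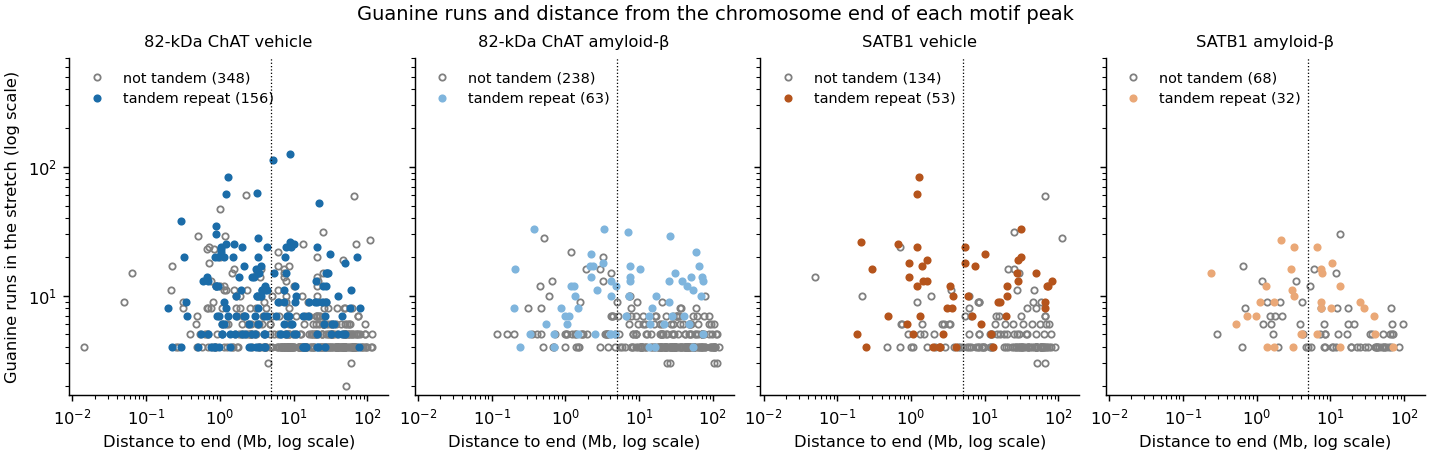
Each point is 1 motif peak, with the number of guanine runs in its richest stretch (log scale) against the distance to the nearer chromosome end (Mb, log scale). Filled points are tandem repeats, open points are not, and the dotted line marks 5 Mb. The points with the most runs (up to 125 in 82-kDa ChAT after vehicle) are mostly filled.

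Members were gathered toward chromosome ends in every list. Within 5 Mb of an end lay 38.5% of members of 82-kDa ChAT after vehicle (34.2 to 42.9, 194 of 504), against 13.6% of the other peaks. After Aβ it was 26.9% (22 to 32.3, 81 of 301) against 8.48%. In SATB1 it was 29.9% after vehicle (23.5 to 37.1, 56 of 187) against 8.60%, and 36.0% after Aβ (26.6 to 46.2, 36 of 100) against 8.36%. All 4 gaps, of 24.9, 18.4, 21.3 and 27.6 points, had intervals above 0. Of all 1319283 motif stretches of the genome, 17.0% lie as near to an end, below the lowest of these 4 shares.

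Seen the other way, a peak close to an end was more often a motif peak. Within 1 Mb of an end, 19.2% of 82-kDa ChAT peaks after vehicle and 21.8% after Aβ held the motif, against 4.00% and 3.45% beyond 20 Mb. For SATB1 the shares were 19.8% and 7.77% within 1 Mb, and 4.46% and 0.795% beyond 20 Mb.

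Base composition moved with nearness to ends. Among peaks with a GC content of at least 50%, the gap between members and other peaks was 8.45 points in 82-kDa ChAT after vehicle (3.05 to 13.9) and 13.2 after Aβ (7.25 to 19.7). In SATB1 it was 5.40 points after vehicle, with an interval that held 0 (-2.96 to 14.2), and 27 after Aβ (17.7 to 37.5). GC-rich peaks without the motif were themselves near ends in the vehicle lists, at 35.4% for 82-kDa ChAT and 28.2% for SATB1.

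Tandem members lay near ends more often than the other members. In 82-kDa ChAT after vehicle, 57.7% of tandem members lay within 5 Mb (49.5 to 65.6), against 29.9% of the other members (25.1 to 35). After Aβ the values were 49.2% and 21%, and in SATB1 52.8% and 20.9% after vehicle and 53.1% and 27.9% after Aβ.

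**Figure D3:**
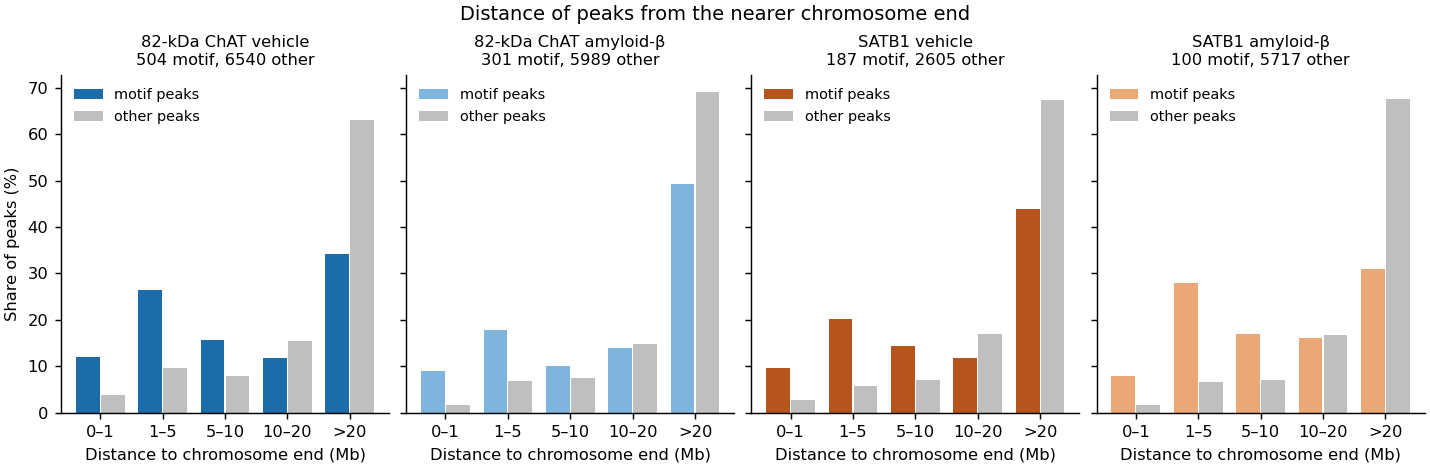
Share of motif peaks (coloured) and of the other peaks of the same list (grey), in %, by distance to the nearer chromosome end in Mb. Motif peaks exceed the other peaks in the 3 bins up to 10 Mb in every list, and most peaks without the motif lie beyond 20 Mb (63.1% to 69.2%).

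**Figure D4:**
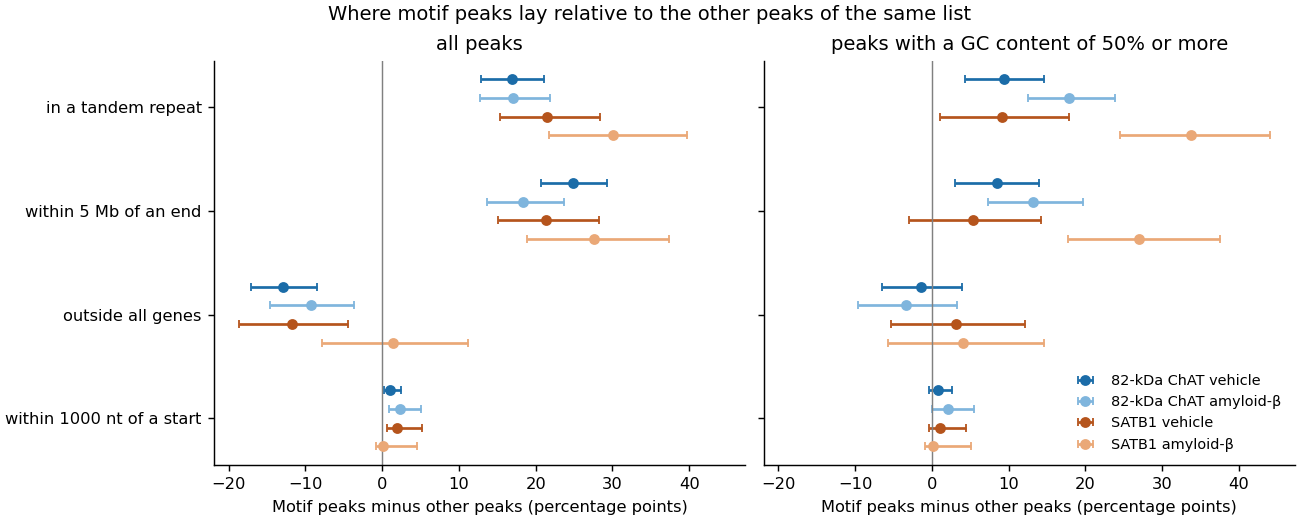
Share of motif peaks minus share of the other peaks of the same list, in percentage points with 95% intervals, for all peaks (left) and for peaks with a GC content of at least 50% (right). In the left panel the tandem repeat and chromosome end gaps lie between 16.9 and 30.1 points in all 4 lists, and in the right panel the gaps outside genes all have intervals that hold 0.

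The short arm end of chromosome 5 held the most members within 5 Mb of an end, with 22 over the 4 lists, of which 11 came from 82-kDa ChAT after vehicle. It was followed by the short arm end of chromosome 7 with 19. Peaks of all kinds at these ends were not counted. By chromosome, members were densest on chromosome 19 (9.89 per 10 Mb), chromosome 22 (8.86) and chromosome 17 (8.65), which are rich in genes and in GC, and sparsest on X (1.73). Among all 82-kDa ChAT peaks after vehicle and Aβ, members were 34 of 165 and 16 of 169 on 19, 18 of 180 and 9 of 106 on 22, and 35 of 389 and 29 of 249 on 17. For SATB1 they were 4 of 49 and 4 of 272, 12 of 79 and 6 of 115, and 6 of 99 and 2 of 336.

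The member nearest to an end lay 0.0142 Mb from the short arm end of chromosome 1, in an exon of DDX11L2, a pseudogene of a helicase-like family, with a score of 64.6 in 82-kDa ChAT after vehicle. Its sequence is multi-copy, so which copy the reads came from cannot be told apart. A site near PLEKHG4B lay 0.0495 Mb from the short arm end of chromosome 5 and was a peak of both 82-kDa ChAT (score 63.9) and SATB1 (score 67.3) after vehicle. After Aβ, the nearest 82-kDa ChAT member was in intron 4 of NPRL3, a subunit of a complex that restrains mTORC1 (score 83.1), and the nearest SATB1 member in intron 3 of FAM20C, a secretory pathway kinase (score 55.9).

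Telomere repeats were rare among members. The hexamer TTAGGG, on either strand, occurred at least 4 times on a strand in 3 members, all from SATB1 after vehicle. They were the PLEKHG4B peak, a peak in PPP2R2C, a regulatory subunit of a serine/threonine phosphatase (score 65.2), and a peak in SERINC2, a membrane protein (score 65.8). The last 2 lay 6.42 and 31.4 Mb from an end. At least 2 copies were held by 4 members of 82-kDa ChAT after vehicle, 1 after Aβ, 7 of SATB1 after vehicle and 0 after Aβ.

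Introns were the most frequent place of members. After vehicle they held 55.4% of members against 46.9% of the other peaks in 82-kDa ChAT (gap 8.48 points, 3.95 to 12.9). In SATB1 after vehicle it was 53.5% against 46.0% (7.49, 0.0875 to 14.7). After Aβ both intervals held 0, with 56.1% against 51.9% in 82-kDa ChAT (4.28, -1.50 to 9.92) and 52.0% against 57.0% in SATB1 (-4.99, -14.8 to 4.63). Over all lists 600 of 1092 (54.9%) were in introns, 389 (35.6%) outside genes, while 38 (3.48%) touched coding exons, 21 (1.92%) untranslated regions and 44 (4.03%) other exons. Those outside genes were fewer than among the other peaks for 82-kDa ChAT after vehicle (35.1% against 48%, gap -12.9 points, -17.1 to -8.46) and after Aβ (33.2% against 42.5%, gap -9.32, -14.6 to -3.68), and for SATB1 after vehicle (38% against 49.8%, gap -11.8, -18.7 to -4.44). For SATB1 after Aβ the interval of the gap held 0 (41.0% against 39.6%, gap 1.36, -7.86 to 11.2). Of all motif stretches of the genome, 33.0% lie outside genes. In peaks with a GC content of at least 50% no list had a gap whose interval left out 0.

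Coding exons were touched by 5.98% of members of 82-kDa ChAT after Aβ (3.58 to 9.29, 18 of 301), against 1.65% of the other peaks, a gap of 4.33 points (2.13 to 7.61). After vehicle the share was 2.78% (14 of 504) against 1.56%, a gap of 1.22 points (0.0543 to 3.07). For SATB1 the gaps were 0.949 points after vehicle (-0.446 to 4.20) and 1.63 after Aβ (0.170 to 6.64), the latter with 2 members. Among peaks with a GC content of at least 50%, the gap in 82-kDa ChAT after vehicle was 0.0898 points (-1.67 to 2.46), and after Aβ it was 3.59 (0.658 to 7.69). The peaks at ABCC10, a drug efflux transporter, touched coding exon 18 or another annotated coding exon while their motif lay in intron 18, and had scores of 76.7 and 56.6 in 82-kDa ChAT after vehicle and Aβ and of 68.6 in SATB1 after Aβ.

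Few members lay at gene starts, taken as the 5′ end of the whole annotated gene. Within 1000 nt of the start of a protein-coding gene lay 22 members (2.01%) at 20 genes, whereas 6.47% of all motif stretches of the genome do. By list the share was 1.39% in 82-kDa ChAT after vehicle (7 of 504), 3.32% after Aβ (10 of 301), 2.14% in SATB1 after vehicle (4 of 187) and 1.0% after Aβ (1 of 100). The shares of the other peaks were 0.413%, 0.935%, 0.192% and 0.875%, with gaps of 0.976 (0.237 to 2.43), 2.39 (0.854 to 5.08), 1.95 (0.618 to 5.18) and 0.125 points (-0.743 to 4.58). Among peaks with a GC content of at least 50%, the gap was 0.774 in 82-kDa ChAT after vehicle (-0.333 to 2.58). In SATB1 it was 1.07 after vehicle (-0.398 to 4.43) and 0.115 after Aβ (-0.893 to 5.15). These intervals held 0, while that of 82-kDa ChAT after Aβ narrowly left it out (2.13, 0.0422 to 5.48).

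Promoters are full of this motif, and members seldom touched one. Of 34961 RefSeq promoter windows (250 nt before to 50 nt after the start, GRCh38.p14), 17788 (50.9%) held the motif, against 10.5% of all genome windows of 300 nt. Of those 17788, a motif peak touched 5, among them the promoters of GRIN3B, PITPNC1 and NCR2. Any peak at all touched 34 promoters, 12 of which held the motif.

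Distances to the nearest protein-coding gene start were long. The median was 46.6 kb for members of 82-kDa ChAT after vehicle, against 110 kb for the other peaks, and 46.2 kb against 90.2 kb after Aβ. For SATB1 it was 64.4 kb against 133 kb after vehicle, and 52.5 kb against 48.4 kb after Aβ.

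At 2 gene starts the same site was a peak of both proteins after vehicle. At CTNND1, which encodes p120-catenin of cadherin junctions, the 82-kDa ChAT peak had a score of 99.3 and 6 runs. The SATB1 peak there had a score of 83.8 and 9 runs. They were centred 109 and 130 nt downstream of the start in an untranslated region. Both lay outside the main (MANE Select) transcript of the gene, as did the peaks at S1PR4, VPS53, ZNF536 and RP1L1 given below. At CYP4F11, a cytochrome P450 that hydroxylates fatty acids, the peaks in intron 1 had scores of 70.4 in both lists and lay in the tandem repeat printed above.

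The other start-proximal members of 82-kDa ChAT after vehicle had scores between 53.1 and 70.3. They were at TRAPPC4, a subunit of a vesicle-tethering complex, in coding exon 2 with 7 runs (score 54.5), and at GRP, which encodes gastrin-releasing peptide, 0.325 kb upstream (score 53.2). The one at DCHS1, a large cadherin, lay 0.752 kb upstream (score 63.5). Those at TEX19, a germ-cell protein (score 53.1), and S1PR4, a sphingosine-1-phosphate receptor (score 70.3), were arrays of 30 and 15 runs.

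After Aβ, 82-kDa ChAT had 10 such members at 10 genes. The peak at GRIN3B, an NMDA receptor subunit, lay 0.0850 kb upstream of the start with guanine runs on both strands, 81.4% GC and a score of 57.5. NCR2, a receptor of natural killer cells, had one 64 nt downstream (score 54.5), the nearest of all. The remaining peaks were at PITPNC1, a phosphatidylinositol transfer protein (0.280 kb upstream, score 63.9), ATG9B, an autophagy protein (284 nt downstream, score 81.7), VPS53, a Golgi tethering subunit (score 100.2), ZNF536, a zinc-finger protein of neurons (score 73.1), ECM1, an extracellular matrix protein (score 67.0), GRK1, the rhodopsin kinase (score 55.7), VHL, the substrate receptor for hypoxia-inducible factor (score 52.9), and RP1L1, a photoreceptor protein (score 103.8).

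SATB1 after vehicle had 2 further such members, at TNFRSF8, the lymphocyte receptor CD30 (score 83.3), and at ZDHHC12, a palmitoyltransferase (score 55.7). After Aβ it had 1, 0.644 kb upstream of SULT1A4, a sulfotransferase with near-identical copies, in a sequence region that is duplicated (score 60.1).

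**Figure D5:**
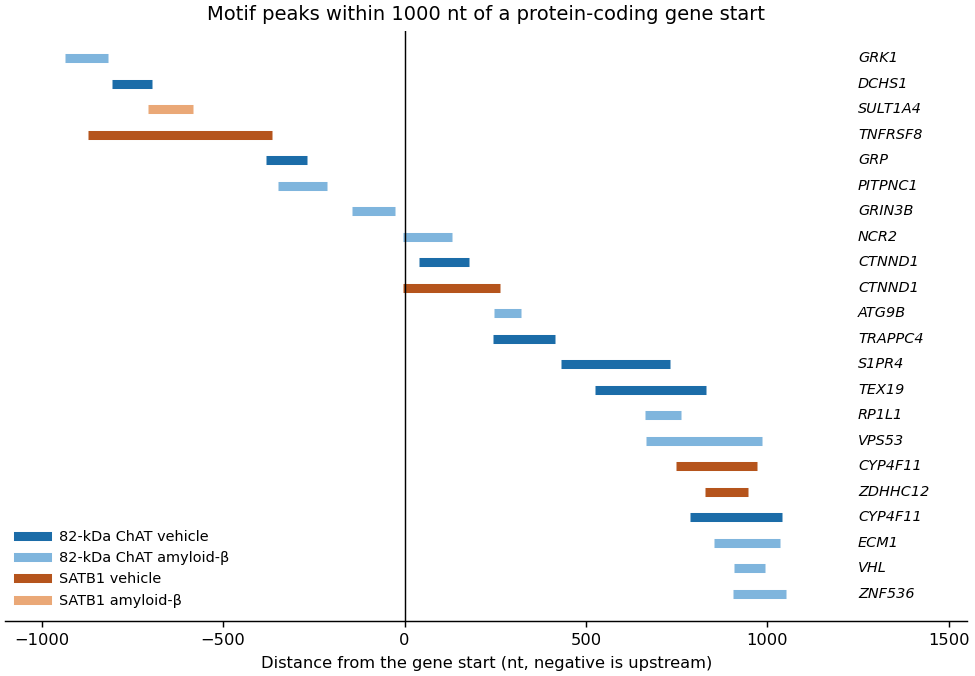
Position and length of the 22 motif peaks within 1000 nt of a protein-coding gene start, in nt from the start in the direction of the gene, coloured by list. Of them, 15 are centred downstream and 7 upstream, and 2 cover the start itself.

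The strand of the guanines showed no firm preference relative to the gene. In 82-kDa ChAT after vehicle, 159 of 295 members with runs on 1 strand and genes of 1 strand had the guanines on the gene strand (53.9%, 48 to 59.7), and after Aβ 88 of 183 (48.1%, 40.7 to 55.6). In SATB1 it was 55 of 96 after vehicle (57.3%, 46.8 to 67.3) and 24 of 50 after Aβ (48%, 33.7 to 62.6). Of all motif stretches in genes of the genome, 52.3% are on the gene strand, which lies within all 4 intervals. Restricted to protein-coding genes, the share in 82-kDa ChAT after vehicle was 57.4% (51 to 63.7, 143 of 249), and its interval left out 50% but not the genome value for all genes.

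At gene starts the guanines lay on the strand opposite to the gene in 15 of the 21 members with runs on 1 strand. CTNND1 and CYP4F11 each count in 2 lists here, and no preference is read from so few sites. The 6 on the gene strand were those at CTNND1 (both peaks), TRAPPC4, DCHS1, PITPNC1 and S1PR4. Of RefSeq promoter windows with the motif on 1 strand, 7004 had it on the gene strand and 6240 on the other.

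Motif peaks of one protein often coincided with peaks of the other after vehicle. Of the members of 82-kDa ChAT after vehicle, 82 of 504 (16.3%, 13.2 to 19.8) shared at least 1 nt with a SATB1 peak, against 9.13% of all peaks of that list. For SATB1 after vehicle it was 76 of 187 (40.6%, 33.5 to 48.1), against 22.5% of all its peaks. After Aβ the shares were 15 of 301 (4.98%, 2.82 to 8.09) for 82-kDa ChAT, against 3.40% of all its peaks, and 13 of 100 (13.0%, 7.11 to 21.2) for SATB1, against 3.54%. Against the peaks without the motif the gaps were 7.69 points (4.64 to 11.2), 19.4 (12.4 to 26.7), 1.66 (-0.339 to 4.76) and 9.62 (4.36 to 17.6). Both proteins of a treatment shared 1 input, and the part of that input in the overlap was not tested.

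Between treatments, too, some members met a peak of the same protein. For 82-kDa ChAT, 33 of 504 members after vehicle (6.55%, 4.55 to 9.07) met a peak of the Aβ list, against 5.01% of all its peaks, and 27 of 301 after Aβ (8.97%, 5.99 to 12.8) met a vehicle peak, against 5.53%. For SATB1, 7 of 187 after vehicle (3.74%, 1.52 to 7.56) met an Aβ peak, against 1.61% of all its peaks, and 6 of 100 after Aβ (6.00%, 2.23 to 12.6) met a vehicle peak, against 0.722%.

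When overlapping members were joined, the 1092 peaks formed 963 loci. Of these, 852 had a motif peak of 1 list, 100 of 2 lists, 9 of 3 and 2 of all 4. Only motif peaks were joined, so a locus of 1 list could still meet a peak without the motif in another list. The same split over all peaks is not given here, so these counts are not read as a trait of members. The largest group of shared loci, 62, joined 82-kDa ChAT and SATB1 after vehicle, and 19 joined the 82-kDa ChAT lists. Of the 111 shared loci, 45.0% were tandem repeats and 43.2% multi-copy, and of the 852 loci of 1 list 24.4% and 24.2% were. Repeated sequence moved with sharing, and its part in the overlaps was not tested.

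The locus near SLC6A19, a transporter of neutral amino acids in gut and kidney, was in all 4 lists and lay 1.19 Mb from the short arm end of chromosome 5. Its scores were 139 and 103.6 in 82-kDa ChAT after vehicle and Aβ, and 54.2 and 53.4 in SATB1. The only other locus with motif peaks of 4 lists was in the ribosomal spacer. A site near MKI67, which encodes the proliferation antigen Ki-67, had scores of 211.9 and 60.9 in 82-kDa ChAT and 117.4 in SATB1 after vehicle. The one near INSIG1, an endoplasmic reticulum protein of sterol sensing, had scores of 210.8 in 82-kDa ChAT after vehicle, 171.9 after Aβ and 148.1 in SATB1 after Aβ.

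The spacer that separates the ribosomal RNA genes on the short arm of chromosome 21 gave 17 members. Of these, 7 came from 82-kDa ChAT after vehicle, 1 after Aβ, 5 from SATB1 after vehicle and 4 after Aβ. The members were 1052 to 11847 nt long, with 4 to 9 runs in the richest stretch. Genome windows of only 300 nt held the motif in 10.5% of cases, so peaks of such lengths have much room for it. The number of all spacer peaks is not given here, so nothing is read from the 17. The spacer members began between 4.26 and 24.6 kb after the end of a 45S precursor gene. Among those of vehicle were an 82-kDa ChAT peak 8.25 kb after RNA45SN2 (score 312.1) and another 8.12 kb after RNA45SN1 (score 377.7). In SATB1 after vehicle, peaks of 11178 and 11847 nt lay in the spacers after RNA45SN2 and RNA45SN1. They began 5.71 and 4.26 kb after the gene and had scores of 483.7 and 360.3. Scores after Aβ were 104.3 in 82-kDa ChAT and between 74.5 and 100.7 in SATB1. Over all deposited peaks the highest score was 3195 after vehicle and 715 after Aβ in 82-kDa ChAT, and 484 and 350 in SATB1. Depth is unknown, so no difference between treatments is read from the spacer scores. The spacer sequence occurs in many copies, with a median of 5 to 10 exact copies of its 24-mers in hg38 alone and more in a cell. Which copy a read came from therefore cannot be told apart.

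The highest-scoring members were partly tandem repeats. Of the 126 members with a score of at least 100, 42.9% were tandem repeats, against 27.8% of all members. In 82-kDa ChAT after vehicle they included a site 9.25 Mb into chromosome 21 (731.3), the array in intron 6 of PTPRN2 (682.9), a repeat of 36 nt in intron 5 of RPTOR, the scaffold of mTORC1 (651.9), and the UNCX array (581.1). After Aβ, they included intron 21 of PCCA, a subunit of propionyl-CoA carboxylase (195.35), and the INSIG1 site (171.9). Intron 7 of RAB11FIP3 (135.7) and a site near IRX4 (125.7) followed. For SATB1 after vehicle, 3 of the 5 highest were ribosomal spacer, and the others were intron 12 of SART1, a spliceosome protein (208.7), and intron 2 of BTNL9 (212.8). After Aβ, SATB1 had scores of 148.1 at INSIG1 and 124.1 in intron 8 of ASTL, an oocyte protease. Tandem repeats outside genes near DCTD (118.2) and NSUN2 (114.2) came next, and then intron 9 of AXL, a receptor tyrosine kinase (107.0).

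Members lay in 627 annotated genes, 468 of them protein-coding. The numbers were 333 genes for 82-kDa ChAT after vehicle, 220 after Aβ, 132 for SATB1 after vehicle and 64 after Aβ. Motif peaks of at least 2 lists fell in 106 genes, 80 of them protein-coding, and often at different places of a long gene. The same counts over all peaks are not given here, so nothing about members is read from them.

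PTPRN2, a phosphatase-like receptor of dense-core vesicles, and ADARB2, a brain relative of the RNA-editing deaminases, were the 2 protein-coding genes with motif peaks of all 4 lists. In PTPRN2, 9 of 45 peaks were members, all in introns. The array in intron 6 had 62 runs in a repeat of 38 nt and scores of 682.9 in 82-kDa ChAT and 121.5 in SATB1, both after vehicle. After Aβ the members were elsewhere in the gene, with scores of 53.5 for 82-kDa ChAT and 55 for SATB1. In 7 of the 9 the guanines lay on the gene strand. The intron 6 array counts 3 times among these 7, so no strand preference is read from them. ADARB2 had 4 members of 11 peaks, at 4 different places, with scores of 69.9, 56.6, 58.8 and 58.1, so no list shared its site with another.

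With these 2, 12 protein-coding genes had motif peaks of at least 3 lists, and some of the others are described here. Left undescribed are PRR5-ARHGAP8 with 6 members, GRAMD4 with 5, and MAD1L1, the overlapping ENSG00000286192 and TMEM132D with 3 each. ABCC10 is given above. The genes described are a selection, so nothing is read from what they do. GALNT9, an enzyme that starts O-linked glycosylation in brain, had 6 members of 7 peaks, all with the guanines on the gene strand. Of these 6, 2 are the site shared by 82-kDa ChAT and SATB1 after vehicle, with scores of 80.6 and 62.1. No strand preference is read from so few sites. In CALN1, a neuronal calcium sensor, a repeat of 20 nt had scores of 75.1 and 74.4 in 82-kDa ChAT after vehicle and Aβ and of 68.0 in SATB1 after vehicle. CDH13, a cadherin anchored to the membrane by a lipid, had a repeat of 43 nt with scores of 65.0 in SATB1 after vehicle and 74.8 after Aβ at 1 site, and a neighbouring 82-kDa ChAT member after vehicle with 97.7. SORCS2, a sortilin-type receptor, had 3 neighbouring members in 82-kDa ChAT after vehicle (53.5, 81.2 and 67.2), 1 after Aβ at another place (58.7) and 1 in SATB1 (65.5).

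The 3 further genes, picked as examples after their values were seen, had motif peaks of 2 lists. CACNA1C, the pore subunit of an L-type calcium channel, had neighbouring members in 82-kDa ChAT after vehicle (59.1 and 84.7). The one with 84.7 overlapped a member of SATB1 after vehicle (50.6). GRIK3, a kainate receptor subunit, had neighbouring members of 82-kDa ChAT (88.8 and 56.4) and SATB1 (53.7) after vehicle, none of which overlapped. RBFOX3, the splicing factor known as NeuN, had 3 members in 82-kDa ChAT after vehicle, the strongest at 140.4, and 2 after Aβ at 52.9 and 56.6, all at separate sites.

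Some genes known for quadruplex biology had peaks, and the share of all genes with a peak was not counted for comparison. Of 17 genes with described quadruplex promoters or transcripts, such as KIT and BCL2, 6 had a peak and 0 a motif peak. The counts were 8 and 0 for 15 quadruplex helicases and binding proteins, and 2 and 0 for 6 genes of shelterin, the complex that caps telomeres. Members were 1092 of 21943 peaks, so with so few peaks nothing is read from the counts of 0.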

How the data were processed

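The measured values were peak lists, 1 for each ChIP library, and the 2 input samples were not analysed here. Per the study's methods, the authors mapped reads to hg38 with BWA and repeat-masking and called peaks with MACS per sample. The methods also state that peaks significant in the matching input were filtered out. On all sequences, the lists held 8270 (82-kDa ChAT, vehicle), 6563 (82-kDa ChAT, Aβ), 3065 (SATB1, vehicle) and 6055 peaks (SATB1, Aβ). Each of these numbers is larger than the one the paper reports. Whether input peaks had been removed from the lists used here is therefore unknown and was not tested. Tool versions are not given in the sources used here. The deposited score of a peak is 10 times the negative log10 of its p-value and was at least 50, as a threshold of 1e-05 requires. Depth per library is unknown from these files, so peak numbers could not be set against it. Repeat-masking and mapping decide which repeat copies can hold a peak.

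Members and gene lists were chosen with earlier results of these data known. Motifs were searched in Python 3.11.15 (numpy 2.4.6, pandas 2.3.3, pysam 0.24.0, numba 0.67.0) on both strands, and counted in every genome window of each peak length. Genes came from GENCODE 44, and promoter windows from RefSeq (GRCh38.p14). Distances to starts run from the peak centre. A peak was multi-copy if more than 50% of its 51-mers occurred more than once in the genome. Intervals were exact Clopper-Pearson for shares (scipy 1.17.1) and Newcombe for differences (statsmodels 0.14.6), at 95%. The stretches of the members with the most runs were added to the printed sequences after their values were seen. By rule, the genes named were those within 1000 nt of a start, the highest scores, the sites nearest to ends, the most runs, and sites or genes with members in several lists. The highest-scoring site of both 82-kDa ChAT lists is an exception to this rule and is not reported here. Code was tested on simulated sequences and against direct counts, and 9 of 9 checks passed. Alternatives covered spacing, score, repeats, merging, windows, genes and overlap. There were no replicates, so none could be left out.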

Additional observations from a re-analysis of the deposited data

Results flagged for a closer look

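Motif peaks also occurred on sequences outside chromosomes 1 to 22 and X, which the comparisons above did not use. These are chromosome Y and the unplaced, unlocalised and alternate sequences of the assembly. There were 58 such peaks of 1226 in 82-kDa ChAT after vehicle (4.73%, 3.61 to 6.07) and 21 of 273 after Aβ (7.69%, 4.82 to 11.5). SATB1 had 22 of 273 after vehicle (8.06%, 5.12 to 11.9) and 8 of 238 after Aβ (3.36%, 1.46 to 6.52).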

How the results depend on the processing

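Over 30 results and 216 alternative settings, 177 kept their direction and side of the threshold, or moved by less than their interval. Gaps for tandem repeats and the overlaps between proteins did so under every alternative run. GC content, peak length, high copy number, run parting and the identity for tandem repeats were chosen after seeing the data. In what follows, lists are in the order 82-kDa ChAT vehicle and Aβ, then SATB1 vehicle and Aβ, and the cause of a change was not tested.

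The share of peaks with the motif was 1.15%, 1.37%, 1.54% and 0.292% with 1 to 7 nt between runs, 3.08%, 2.66%, 3.22% and 0.791% with 1 to 12 nt, and 13.0%, 12.2%, 12.9% and 4.97% with peaks widened by 100 nt on each side. Without multi-copy peaks it was 6.49% for 82-kDa ChAT vehicle and 2.78% for SATB1 Aβ, without high-copy peaks 4.15% for SATB1 Aβ, and at scores from the median up 4.20% for 82-kDa ChAT Aβ. The treatment difference in 82-kDa ChAT changed sign to 0.217 points with 1 to 7 nt, and its interval held 0 with 1 to 12 nt (-0.426) and with widened peaks (-0.824).

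For gene starts, the interval of the gap held 0 in 82-kDa ChAT vehicle at scores from the median up (0.776) and at a GC content of 50% or more (0.774), in 82-kDa ChAT Aβ with 1 to 7 nt (0.115), and in SATB1 vehicle with all gene starts (1.51), a 5000 nt window (2.01), the GC minimum (1.07) and peaks of 100 to below 200 nt (0.672). For SATB1 Aβ it left out 0 with all transcript starts (5.2). The chromosome end gap of SATB1 vehicle was 5.40 at the GC minimum. Outside genes, intervals held 0 in 82-kDa ChAT vehicle with 1 to 7 nt (-8.92) and at the GC minimum (-1.40), in 82-kDa ChAT Aβ with 1 to 7 nt (-7.31), higher scores (-4.45), the GC minimum (-3.36) and 100 to below 200 nt (-6.79), and in SATB1 vehicle with higher scores (-6.95) and without multi-copy peaks (-6.27), while the sign turned at the GC minimum (3.14). The gene strand share of 82-kDa ChAT vehicle left out 50% at higher scores (59.7%) and in protein-coding genes (57.4%).

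No paired analysis was possible because each protein and treatment had 1 library. With 1 library each and unknown depth, a difference between treatments cannot be told apart from one between libraries.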
